A study of Mus musculus with 8 samples.

Results

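The 10 genes described here encode the core of M-phase promoting factor and the enzymes that switch it: the B-type cyclins Ccnb1, Ccnb2 and Ccnb3, the kinase Cdk1, the phosphatases Cdc25a, Cdc25b and Cdc25c, and the inhibitory kinases Wee1, Wee2 and Pkmyt1. They were taken by gene symbol, whatever their values. All 10 were among the 15962 genes listed in all 8 expression tables and among the 13952 genes that passed the filter on low values. The question was how the RNA of each behaved when mouse oocytes matured, and when they matured with a BTG4 that lacks 3 phosphorylation sites.

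M-phase promoting factor is a kinase made of CDK1 and a B-type cyclin. The cyclin is made and destroyed in each division, WEE1-type kinases and PKMYT1 hold CDK1 inactive by phosphorylating it, and CDC25 phosphatases remove those phosphates. A fully grown oocyte waits in prophase at the germinal vesicle (GV) stage with this kinase held low. Its rise drives meiotic resumption, and high activity keeps the ovulated egg in metaphase II (MII). Transcription is silent through this period, so the transcripts come from a maternal store. Part of that store is translated after its poly(A) tails are lengthened, and part is deadenylated and degraded. BTG4 is an adaptor that brings the CCR4-NOT deadenylase to maternal mRNA.

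RNA-seq libraries were made by Smart-seq2, an oligo(dT)-primed method, from pools of 15 zona-free oocytes of 6-week-old superovulated ICR (Crl:CD1) mice. The control set held GV and MII oocytes, which according to the paper came from oocytes cultured in vitro. The injection set held MII oocytes that had been microinjected, when fully grown, with cRNA encoding Myc-tagged BTG4, either wild type (Btg4wt) or with 3 adjacent residues changed to alanine (Btg4tm). Each of the 4 groups had 2 libraries here, where the labels state 3 samples a group. Their own Btg4 gene was intact, so endogenous BTG4 could also be present. The paper reports that injected BTG4, wild type or mutant, seemed to lower the amount of the endogenous protein. That amount was not measured in these libraries. No label says that the libraries of a group came from separate animals, so the p-values measure only the spread between these libraries, which may be technical.

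Values are TPM (read counts divided by gene length and set to a fixed sum a library). They were divided by 1 factor a library (0.948 to 1.11) so that the median gene is level across libraries. The tables give no read counts, so the depth of the libraries is unknown. Replicates correlated at 0.982 to 0.987 across genes. All 12 oocyte markers were over 1 TPM in every library, and none of 7 blood cell markers was listed. Of 15 cumulus and granulosa markers, 7 were listed in the control tables and 8 in the injection tables. Their sums ran from 25.9 to 26.3 TPM in GV, 31.3 to 33.8 in MII, 26.8 to 31.9 in Btg4wt and 27.7 to 33.4 in Btg4tm, most of it Cyp19a1. The markers Amh, Foxl2, Inhba, Has2, Tnfaip6 and Ptx3 were not listed in any library. Inha, a granulosa gene, moved with the groups, at 4.64 and 2.33 TPM in GV, 0 and 0.516 in MII, 1.86 and 1.05 in Btg4wt, and 9.74 and 4.91 in Btg4tm. Fshr, the granulosa receptor for follicle-stimulating hormone, was listed in the injection tables alone, at 0.0582 and 0.152 TPM in Btg4wt and 0.468 and 1.42 in Btg4tm. So was Cyp11a1, at 0.114 and 0.249 TPM in Btg4wt and 0.276 and 0.145 in Btg4tm. Hsd17b1 was listed in the control tables alone, at 0.465 and 0.514 TPM in GV and 0.438 and 0.455 in MII. Kitl, another marker of the list, went opposite to Inha, at 2.74 and 2.27 TPM in GV and 4.93 and 5.54 in MII. Kitl read 5.81 and 4.85 TPM in Btg4wt and 2.77 and 2.64 in Btg4tm. Cyp19a1 was also higher in MII, at 24.8 and 25.9 TPM, than in GV, at 16.7 and 19.2. Star was lower in MII, at 0.819 and 1.07 TPM, than in GV, at 1.14 and 1.34. The listed markers thus did not move together. The part of cumulus RNA in the results below was not tested. Btg4 itself read 2650 and 2794 scaled TPM in GV, 5792 and 6002 in MII, 5178 and 5510 in Btg4wt and 3725 and 4068 in Btg4tm. The reads in the injected groups can include the injected cRNA, so this row does not check the labels.

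TPM are shares of a library. In such pools, fewer transcripts of a gene per oocyte and more of all other RNA cannot be told apart. Neither can a lost transcript and one whose tail is too short to be primed. For a higher reading, more copies and better priming of a lengthened tail cannot be told apart either. The share of mitochondrially encoded RNA moved with the groups: 0.625% and 0.651% in GV, 2.71% and 2.60% in MII, 2.07% and 1.77% in Btg4wt, and 0.774% and 1.03% in Btg4tm. Scaling to that RNA instead moved the median of all genes by -1.69 on the log2 scale in MII against GV and by 0.84 in Btg4tm against Btg4wt. Every direction below is therefore relative to the median gene. On the mitochondrial scale all 10 genes were lower in MII than in GV, including those described below as higher.

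The 3′ untranslated regions (UTRs) of these transcripts are shown first, because they carry the elements through which maternal mRNA is stored, adenylated and removed. The cytoplasmic polyadenylation element (CPE, searched as TTTTAT or TTTTAAT) binds CPEB1, and the poly(A) signal (searched as AATAAA or ATTAAA) lies just before the cleavage site. The windows below are 30 bases of the GENCODE M21 annotation of GRCm38, the authors' build, written 5′ to 3′ on the gene's strand with the motif in capitals.
Ccnb1 CPE, chr13:100778775-100778804, minus strand: ctcatttgctgTTTTAATttatacatctga
Ccnb1 poly(A) signal, chr13:100778747-100778776, minus strand: gatatcaagttgAATAAAatttattggtgg
Ccnb2 CPE, chr9:70407860-70407889, minus strand: atcctgtatgtaTTTTATtctagtttacat
Ccnb3 CPE, chrX:6979702-6979731, minus strand: tcttgaaattacTTTTATgaaagaagagaa
Cdk1 CPE, chr10:69336263-69336292, minus strand: agtgacaaagaaTTTTATgggtggggtggg
Cdk1 poly(A) signal, chr10:69335156-69335185, minus strand: ctaatggcacggAATAAAaggattattcac
Wee2 first CPE, chr6:40466757-40466786, plus strand: tttttaacataTTTTAATccagatcattgt
Wee2 second CPE, chr6:40466784-40466813, plus strand: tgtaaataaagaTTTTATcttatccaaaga
Wee1 poly(A) signal, chr7:110143247-110143276, plus strand: attgtctggtgtATTAAAagtcattccgtg

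These windows set the 2 Wee2 elements and the last Ccnb1 element, which are close to a transcript end, beside those of Cdk1, which are not. The 2 Wee2 elements began 46 and 18 bases before the end of the transcript. The Ccnb1 element began 144 bases before the end of the longer transcript and 62 bases before that of the shorter one, whose poly(A) signal is the one printed. In Ccnb3 the element began 68 bases before the end and in Ccnb2 186 bases. Cdk1 held 2 elements, 1835 and 1135 bases before the end of its long transcript, and its shorter UTR of 174 bases held none. Wee1 had poly(A) signals but no CPE.

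Across the set, 6 of 10 genes held a CPE in the UTR of the representative transcript: Ccnb1, Ccnb2, Ccnb3, Cdk1, Cdc25a and Wee2. Among 11006 tested genes with a 3′ UTR the share was 60.4%. Within the last 100 bases it was 2 of 10 genes, Ccnb3 and Wee2, and 19.6% of all genes. Both shares were at the background, so the CPE does not set these genes apart. Cdc25b, Cdc25c, Wee1 and Pkmyt1 had no match to these letters. A match is a stretch of letters on the sense strand and does not show a working site.

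The B-type cyclins Ccnb1 and Ccnb2 were the most abundant genes of the set. Ccnb1, the main cyclin partner of CDK1 in oocytes, read 1669 and 1502 scaled TPM in GV, 3211 and 3561 in MII, 2885 and 2693 in Btg4wt, and 2240 and 1960 in Btg4tm. Both MII libraries lay above both GV libraries, and Btg4tm lay between GV and Btg4wt without overlapping either. Ccnb1 was thus 3386 ± 247 (SD, n = 2) in MII and 1585 ± 118 (SD, n = 2) in GV, 2.14-fold higher (log2 fold change 1.09, SE 0.11, adjusted p = 7.0e-05, limma with Benjamini-Hochberg adjustment over all genes tested). Against Btg4wt, Btg4tm was 0.41 lower on the log2 scale (SE 0.11, adjusted p = 0.017), under the minimum of 1 set for a call.

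Ccnb2, a second B-type cyclin with a similar role, moved less. It read 745 and 652 scaled TPM in GV, 1033 and 1095 in MII, 1057 and 1040 in Btg4wt, and 1000.48 and 1027 in Btg4tm. All 6 MII-stage libraries lay above both GV libraries. Its log2 fold change in MII over GV was 0.61 (SE 0.10, adjusted p = 0.00080), below the fold minimum, and that of Btg4tm over Btg4wt was -0.05 (SE 0.10, adjusted p = 0.71). Btg4tm stayed above GV by 0.54 (adjusted p = 0.014), also below the minimum.

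Ccnb3, a cyclin B that female meiosis I needs for the onset of anaphase, was far rarer. It read 23.6 and 26.2 scaled TPM in GV, 51.4 and 50.3 in MII, 59.8 and 61.5 in Btg4wt, and 18.9 and 23.8 in Btg4tm. Btg4tm overlapped GV, and all 4 MII and Btg4wt libraries were above both. The change in MII over GV was 1.002 (SE 0.14, adjusted p = 0.00033), which passed the fold minimum only narrowly. In Btg4tm, Ccnb3 was 2.84-fold lower than in Btg4wt (log2 fold change -1.47, SE 0.14, adjusted p = 6.5e-05). It was the only gene of the set called lower there. Scaled to mitochondrial RNA that difference shrank to -0.41 (adjusted p = 0.090).

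**Figure D1:**
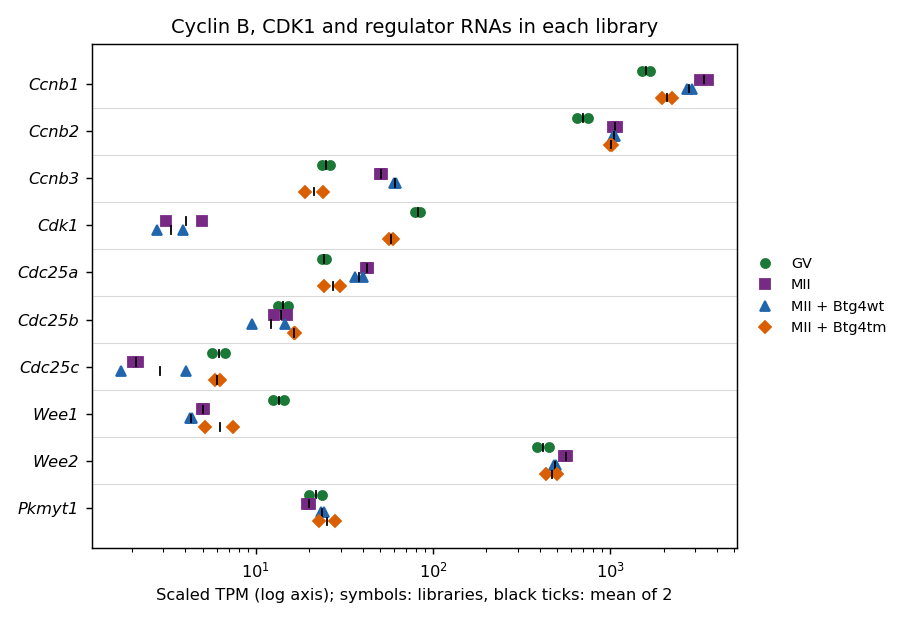
Scaled TPM of each of the 10 genes in each of the 8 libraries, on a log axis, with 1 point a library and a bar at the group mean. Cdk1 is near 80 scaled TPM in GV, 2.75 to 4.97 in MII and Btg4wt, and 56.3 and 59.5 in Btg4tm, while the Pkmyt1 libraries all lie between 19.4 and 27.9.

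Taken as a sum, the 3 cyclin B transcripts came to 2437 and 2180 scaled TPM in GV and 4296 and 4706 in MII, and to 4002 and 3795 in Btg4wt and 3259 and 3011 in Btg4tm. Ccnb1 made up 68.5% and 68.9% of that sum in GV and 74.8% and 75.7% in MII. In Btg4wt its share was 72.1% and 71.0%, and in Btg4tm 68.7% and 65.1%. The Btg4tm shares overlapped those of GV and not those of MII or Btg4wt. A sum of TPM weighs transcripts after division by gene length, and the gene lengths behind the deposited values are not stated.

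The Ccnb1 level is uncertain because of its copies: 51.8% of its longest transcript consists of 50-base stretches that also occur in 6 other annotated genes, all pseudogenes. Of these, Gm12856 was the highest, at 18.2 to 36.5 TPM as deposited, and Ccnb1-ps read 4.22 to 11.4 scaled TPM. The authors' counting kept primary alignments above a limit on mapping quality, and how many Ccnb1 reads that removed, or moved to a copy, was not tested.

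Cdk1, the catalytic subunit, had the largest changes of the set. Relative to the median gene, it went opposite to Ccnb1 and Ccnb3 in both comparisons, and to Ccnb2 in MII over GV. Ccnb2 was level in Btg4tm over Btg4wt (-0.05). On the mitochondrial scale Ccnb1 (-1.12), Ccnb2 (-1.61) and Ccnb3 (-1.15) were lower in MII, as Cdk1 was. Cdk1 read 84.8 and 79.0 scaled TPM in GV, 4.97 and 3.09 in MII, 3.88 and 2.75 in Btg4wt, and 56.3 and 59.5 in Btg4tm. The MII and Btg4wt libraries overlapped each other and lay far below GV and Btg4tm. Cdk1 was 20.3-fold lower in MII than in GV (log2 fold change -4.07, SE 0.21, adjusted p = 2.0e-06) and 17.5-fold higher in Btg4tm than in Btg4wt (log2 fold change 3.78, SE 0.21, adjusted p = 4.9e-06). Mean levels were 4.92% of GV in MII, 4.05% in Btg4wt and 70.7% in Btg4tm. The difference between Btg4tm and GV did not pass (log2 fold change -0.49, adjusted p = 0.16), although both Btg4tm libraries were below both GV libraries. Both large Cdk1 changes kept their direction and their call in every alternative run, the mitochondrial scaling and each left-out library included.

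The exons of Cdk1 span 4934 bases on chr10:69335146-69352938 (GRCm38, minus strand), and its longest transcript has 4375 bases. None of that transcript was shared with other genes. If the reads come mainly from a shorter transcript, its level relative to the other genes is understated. Which transcript was read in each group was not tested.

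The CDC25 phosphatases each showed a different profile. Cdc25a, a phosphatase that activates several cyclin-dependent kinases, read 24.8 and 23.7 scaled TPM in GV, 42.9 and 41.7 in MII, 40.2 and 36.4 in Btg4wt, and 29.8 and 24.3 in Btg4tm. Its change in MII over GV (log2 fold change 0.78, SE 0.14, adjusted p = 0.0012) and in Btg4tm over Btg4wt (-0.49, SE 0.14, adjusted p = 0.016) stayed below the fold minimum. After quantile normalization the first of these was 1.04 (adjusted p = 0.00023), which passes it.

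Cdc25b is the phosphatase that mouse oocytes need to resume meiosis. It read 13.3 and 15.1 scaled TPM in GV, 15.0 and 12.6 in MII, 14.6 and 9.51 in Btg4wt, and 16.6 and 16.3 in Btg4tm. GV and MII overlapped, and neither MII over GV (log2 fold change -0.04, SE 0.21, adjusted p = 0.88) nor Btg4tm over Btg4wt (0.45, SE 0.21, adjusted p = 0.11) passed the test. The second value was 0.73 (adjusted p = 0.024) without the first Btg4wt library and 0.15 (adjusted p = 0.57) without the second. Its exons overlap those of Spef1 over 2.47% of their length.

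Cdc25c, the third phosphatase, is dispensable for meiosis in mice and was the rarest of them. It read 6.70 and 5.62 scaled TPM in GV, 2.17 and 2.01 in MII, 4.03 and 1.73 in Btg4wt, and 5.85 and 6.24 in Btg4tm. The 2 Btg4wt libraries spanned the MII values, and the Btg4tm libraries overlapped those of GV. It was 2.95-fold lower in MII than in GV (log2 fold change -1.21, SE 0.29, adjusted p = 0.0063). In Btg4tm over Btg4wt it reached 0.93 (SE 0.29, adjusted p = 0.027), just under the fold minimum. That value rests on the 2 unequal Btg4wt libraries: without the first it was 1.36 (adjusted p = 0.0042) and would be called, and without the second it was 0.48 (adjusted p = 0.16). Exons of Gm3550 overlap 12.7% of its exonic bases, and without strand in the counting such reads cannot be assigned.

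The inhibitory kinases ranged widely in level. Wee2 (also WEE1B), the oocyte form of WEE1 that keeps meiosis arrested and lets the egg leave metaphase II, was the third most abundant gene of the set in all 4 groups. It read 451.5 and 387 scaled TPM in GV, 573 and 546 in MII, 479 and 492 in Btg4wt, and 498 and 435 in Btg4tm. Its log2 fold changes were 0.42 in MII over GV (SE 0.11, adjusted p = 0.011) and -0.06 in Btg4tm over Btg4wt (SE 0.11, adjusted p = 0.68), both below the fold minimum.

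Wee1, the form used in somatic cells, read 12.5 and 14.4 scaled TPM in GV, 4.97 and 5.10 in MII, 4.22 and 4.37 in Btg4wt, and 5.16 and 7.39 in Btg4tm. Unlike Cdk1 and Cdc25c, it stayed near the MII level in Btg4tm. It was 2.67-fold lower in MII than in GV (log2 fold change -1.26, SE 0.20, adjusted p = 0.00077), and its mean in Btg4tm was 46.7% of that in GV. The 2 Btg4tm libraries lay above both Btg4wt libraries, but the difference did not pass (log2 fold change 0.44, SE 0.20, adjusted p = 0.10), and it was 0.22 without the second Btg4tm library.

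Pkmyt1, a membrane-bound kinase that inhibits CDK1, passed no test. It read 19.9 and 23.6 scaled TPM in GV, 20.2 and 19.4 in MII, 24.1 and 23.3 in Btg4wt, and 27.9 and 22.6 in Btg4tm. GV overlapped MII and Btg4wt overlapped Btg4tm. The log2 fold changes were -0.12 (SE 0.15, adjusted p = 0.50) in MII over GV and 0.08 (SE 0.15, adjusted p = 0.69) in Btg4tm over Btg4wt. Paqr4, which overlaps 8.76% of its exonic bases, shares 15.4% of its longest transcript, so part of this level may belong to that gene.

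In MII against GV, 2 of the 10 genes were called higher (Ccnb1 and Ccnb3) and 3 lower (Cdk1, Cdc25c and Wee1), where a call needs an adjusted p under 0.05 and a log2 fold change beyond 1. Of all genes tested, 12.6% were called higher, 24% lower and 36.6% either way against 5 of the 10, so the counts of the set stand near the background. Without regard to fold, 8 of the 10 passed the adjusted p, 5 of them higher, against 29.9% of all genes higher and 32.8% lower. Both MII libraries lay above both GV libraries in 5 of the genes, where 41.2% of all genes did, and below in 3, where 41.5% did. The median log2 fold change of the set was 0.19, and that of all genes 0.0019. Quantile normalization ended the calls of Ccnb1 (0.71), Cdc25c (-0.88) and Wee1 (-0.93) and called Cdc25a higher (1.04), and the TPM as deposited ended those of Ccnb1 (0.94) and Ccnb3 (0.85).

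**Figure D2:**
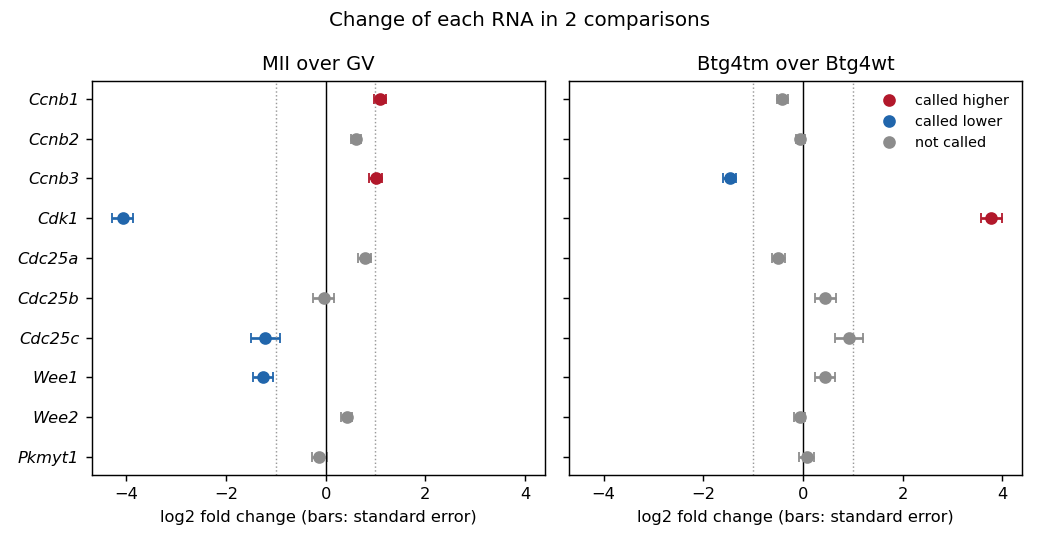
Log2 fold change of each of the 10 genes in MII over GV and in Btg4tm over Btg4wt, with bars of 1 standard error and lines at the fold minimum of 1 in either direction. Cdk1 is at -4.07 in the first comparison and 3.78 in the second, and no other gene of the set passes 1.5 in either direction.

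In Btg4tm against Btg4wt, Cdk1 was the 1 gene called higher and Ccnb3 the 1 called lower. Of all genes 18.2% were called higher, 7.95% lower and 26.1% either way, so these counts too are near the background. Without regard to fold, 5 of the 10 passed the adjusted p, against 26.3% of all genes higher and 23.3% lower. Both Btg4tm libraries lay above both Btg4wt libraries in 4 genes, where 37.6% of all genes did, and below in 4, where 36.7% did. The median of the set was 0.016, and that of all genes 0.0066. Without the first Btg4wt library 2 genes were called higher, Cdk1 and Cdc25c.

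For Btg4wt against uninjected MII oocytes no gene of the set passed the test. By limma, 0 of 10 genes were called in Btg4wt against MII, and 0% of all genes tested. At an unadjusted p under 0.05 the count was 1 of 10, Ccnb1 (adjusted p = 0.40), and 1657 of all 13952 genes. Both Btg4wt libraries lay above both MII libraries in 2 genes, where 24.1% of all genes did, and below in 4, where 20.9% did. The log2 fold changes ran from -0.28 for Ccnb1 to 0.26 for Cdc25c. These 2 groups lie in different sets of tables, so injection and set cannot be told apart.

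Against GV, Btg4tm oocytes differed by 1 call, Wee1, which was lower (log2 fold change -1.003, SE 0.20, adjusted p = 0.019). Of all genes, 1.02% were called higher, 1.02% lower and 2.04% either way. Without regard to fold, Ccnb2 (higher) and Wee1 (lower) passed the adjusted p, against 7.67% of all genes higher and 3.75% lower. Both Btg4tm libraries lay above both GV libraries in 3 genes, where 25.3% of all genes did, and below in 2, where 34.2% did. The Wee1 call was at the fold minimum and was lost without either GV library, the second Btg4wt library or the first Btg4tm library, where the value ran from -1.08 to -0.80. It was also lost when only the 4 libraries compared were fitted (adjusted p = 0.059). MII over GV and Btg4tm over Btg4wt share no library, while each of the other 2 comparisons shares its libraries with both of these.

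The order of levels within the set changed mainly at Cdk1. In GV the order of scaled TPM was Ccnb1, Ccnb2, Wee2, Cdk1, Ccnb3, Cdc25a, Pkmyt1, Cdc25b, Wee1 and Cdc25c, from 1585 to 6.16 scaled TPM, and Ccnb3 overlapped Cdc25a as Cdc25b did Wee1. In MII, Cdk1 had moved from the fourth place to the ninth, and no neighbours overlapped, though the closest libraries of Wee1 and Cdk1 both read 4.97. Btg4wt had the same order, with Cdk1 and Cdc25c overlapping. In Btg4tm, Cdk1 was back in the fourth place, and Cdc25a, Pkmyt1 and Ccnb3 overlapped one after the other, as did Wee1 and Cdc25c. By mean level among all 13952 genes, Cdk1 was number 1868 in GV, 8718 in MII, 9323 in Btg4wt and 2571 in Btg4tm. Ccnb1 was number 71 in GV and 39 in MII.

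Ratios between genes of one library do not depend on how the libraries were scaled. The ratio of Ccnb1 to Cdk1 TPM was 19.7 and 19.0 in GV, 647 and 1153 in MII, 744 and 978 in Btg4wt, and 39.8 and 32.9 in Btg4tm. MII was thus 46.5-fold above GV on the means, and Btg4wt 23.7-fold above Btg4tm, whose ratio was still 1.88-fold that of GV. The ratios in MII and Btg4wt divide by low Cdk1 values, 4.84 and 2.99 TPM as deposited in MII and 3.84 and 2.66 in Btg4wt. The depth of the libraries is unknown, so the size of these folds is uncertain. The ratio of Ccnb2 to Cdk1 also lay lowest in GV, next in Btg4tm and far higher in MII and Btg4wt, with 8.78 and 8.26 in GV, 208 and 354.5 in MII, 273 and 378 in Btg4wt, and 17.8 and 17.2 in Btg4tm. Groups did not overlap in either comparison, and the two-sided exact permutation p was 0.333, the smallest that 2 against 2 libraries can give.

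**Figure D3:**
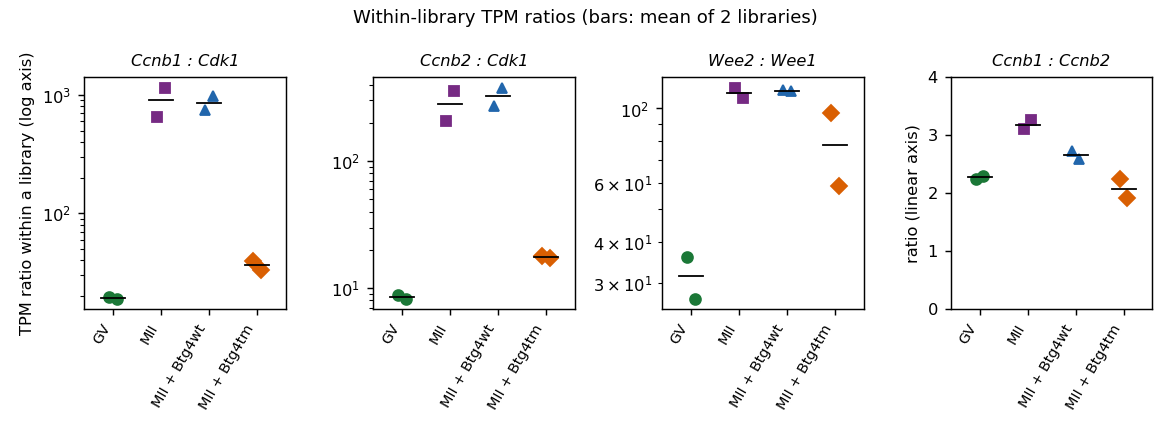
Ratios of TPM between pairs of the genes in each of the 8 libraries, with a bar at each group mean. The axis is logarithmic, except for Ccnb1 to Ccnb2, where it is linear. The ratio of Ccnb1 to Cdk1 is 19.0 to 19.7 in GV, at least 647 in the 4 MII and Btg4wt libraries, and under 40 in Btg4tm.

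Wee2 and Wee1 drew apart on maturation. Their ratio was 36.1 and 27.0 in GV, 115 and 107 in MII, 114 and 113 in Btg4wt, and 96.6 and 58.8 in Btg4tm. All 6 MII-stage libraries were above GV. Ccnb3 to Ccnb2 went from 0.0318 and 0.0402 in GV to 0.0498 and 0.0459 in MII, with 0.0565 and 0.0591 in Btg4wt and 0.0189 and 0.0232 in Btg4tm. The Btg4tm values lay below those of every other group.

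The genes whose profiles were closest over the 8 libraries were found by the root mean square difference of centred log2 values, among 6881 genes that averaged 10 scaled TPM or more. For Cdk1 these were Rpl36a (0.125), Aven (0.136) and Pih1d1 (0.148). Aven, for example, read 270 and 244 scaled TPM in GV, 15.5 and 12.4 in MII, 17.2 and 9.29 in Btg4wt, and 177 and 176 in Btg4tm. For Ccnb1 they were Lims1 (0.0539), Itga9 (0.0683) and Foxo1 (0.0714), and for Wee2 Tiprl (0.05004), Soat1 (0.0515) and Srd5a3 (0.0609). Wee2 varied little, so many level genes lie near it. The measure describes likeness in these libraries and nothing about shared control.

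**Figure D4:**
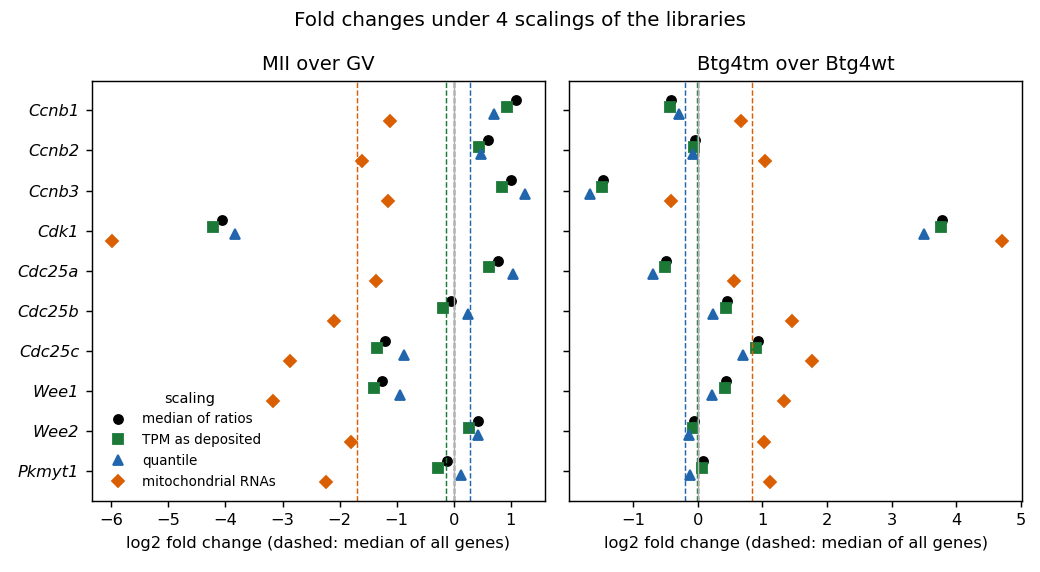
Log2 fold change of each of the 10 genes in MII over GV and in Btg4tm over Btg4wt under 4 scalings of the libraries. Cdk1 stays below -3 and above 3 under each, while Ccnb1, Ccnb2, Ccnb3, Cdc25a and Wee2 turn from higher to lower in MII under the mitochondrial scaling.

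The other subunits of the kinase moved as follows. Cks1b and Cks2, small proteins that dock CDK1 to its substrates, were both called higher in MII, 2 of 2 genes, where 12.6% of all genes were. Cks2 averaged 1773 scaled TPM in GV, 5199 in MII, 4801 in Btg4wt and 3342 in Btg4tm (log2 fold change 1.55 in MII over GV, adjusted p = 1.5e-05). Cks1b averaged 789, 2020, 1774 and 1172 in the same order (1.36, adjusted p = 5.2e-05). Neither was called in Btg4tm over Btg4wt (-0.53 for Cks2 and -0.60 for Cks1b), and both turned lower in MII and higher in Btg4tm under the mitochondrial scaling.

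Of the 3 subunits of the CDK-activating kinase, which phosphorylates CDK1 on its activation loop, 2 were called lower in MII and none higher, and 1 was called higher in Btg4tm over Btg4wt. Of all genes 24% were called lower in the first comparison and 18.2% higher in the second. Ccnh averaged 101 scaled TPM in GV, 28.5 in MII, 24.9 in Btg4wt and 85.0 in Btg4tm. It fell by 1.79 on the log2 scale in MII (adjusted p = 1.5e-05) and was 1.74 higher in Btg4tm than in Btg4wt (adjusted p = 2.8e-05). Cdk7, its kinase partner, fell by 1.02 in MII (adjusted p = 0.00016) and reached 0.79 in Btg4tm over Btg4wt, which was not called. Both were lower in MII under all 4 scalings, but quantile normalization ended the Cdk7 call (-0.85). Mnat1, the third subunit, went the other way without being called, at means of 20.1 scaled TPM in GV and 35.3 in MII. Its log2 fold change was 0.78 in MII over GV (limma adjusted p = 0.0047) and -0.41 in Btg4tm over Btg4wt (adjusted p = 0.089).

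The Greatwall pathway holds back PP2A-B55, the phosphatase that removes phosphates placed by CDK1 on its substrates. Of its 9 genes tested, 2 were called lower in MII and none higher, and the same number was called higher in Btg4tm over Btg4wt. Both counts are near the shares of all genes, 24% and 18.2%. They were Ppp2ca, the catalytic subunit, and Ppp2r2b, a B55 subunit, in both comparisons. Ppp2ca averaged 58.1 scaled TPM in GV, 16.3 in MII, 12.2 in Btg4wt and 62.7 in Btg4tm (log2 fold change -1.77 in MII over GV and 2.29 in Btg4tm over Btg4wt). Ppp2r2b averaged 45.6, 4.97, 6.08 and 33.8 (-2.96 and 2.30). Mastl, which encodes Greatwall, went the other way, just under the fold minimum. It was 0.96 higher in MII than in GV (limma adjusted p = 7.7e-05) and -0.99 in Btg4tm over Btg4wt (adjusted p = 0.00011). Ppp2r1a (0.74, adjusted p = 0.00045) and Ppp2r2a (0.59, adjusted p = 0.012) were also higher in MII over GV without being called. Of 5 genes that act upstream of CDC25 or WEE1 (4 kinases and the cofactor Bora), 1 was called higher in MII, where 12.6% of all genes were: Chek1, a checkpoint kinase that inhibits CDC25 proteins. It averaged 336 scaled TPM in GV, 860 in MII, 891 in Btg4wt and 548 in Btg4tm (1.35 in MII over GV, adjusted p = 5.8e-06, lower under the mitochondrial scaling). Aurka went the other way, just under the fold minimum, averaging 370, 188, 178 and 325 in the same order. Its limma values were -0.97 in MII over GV (adjusted p = 6.4e-05) and 0.87 in Btg4tm over Btg4wt (adjusted p = 0.00019). Chek2, a rare transcript, was also lower in MII over GV without being called (-0.86, adjusted p = 0.0070). Plk1 (-0.19) and Bora (0.40) did not pass there.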

How the data were processed

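The authors deposited 1 table of TPM a library (8 libraries). Per the methods and the submitters' processing notes, they trimmed reads with Trim Galore 0.6.10, aligned them to GRCm38 with HISAT2 2.2.0, counted exon reads without strand with featureCounts 2.0.6 and divided by gene length. The lengths, and the rule by which a gene is listed, are not stated. TPM hold no depth, so no counting intervals are given.

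TPM were scaled by medians of ratios, and log2(scaled TPM + 1) was fitted with limma 3.58.1 in R 4.3.3 over all 8 libraries, 1 coefficient a group, with trended empirical Bayes. Log2 fold changes, with their SE and p, are on that scale and understate those of low genes. Plain folds of a gene are ratios of the group means of scaled TPM, so they differ from the log2 values beside them. Genes with at least 1 scaled TPM in at least 2 libraries were tested (13952), with Benjamini-Hochberg adjustment over all of them. Calls needed an adjusted p below 0.05 with a log2 fold change beyond 1 in either direction. The steps were tested on simulated data. Ratios were compared by two-sided exact permutation tests.

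The 10 genes were all described. Of each related list, at most 3 called genes are named, by mean level, and for Ccnb1, Cdk1 and Wee2 the 3 nearest profiles. Mastl, Ppp2r1a, Ppp2r2a, Mnat1, Aurka, Chek2, Plk1 and Bora, which were not called, are named besides. The members and lists were chosen with earlier results of these data known. The authors' own differential test was not used here. Alternatives changed the scaling, pseudocount, filter, thresholds, model and libraries.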

Additional observations from a re-analysis of the deposited data

How the results depend on the processing

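Scaling to mitochondrially encoded RNA changed most. It gave 0 genes of the set higher and 10 lower in MII over GV, 7 higher and 0 lower in Btg4tm over Btg4wt, and 2 lower in Btg4tm over GV. The medians of all genes moved to -1.69 and 0.84 in the first 2 comparisons, 0.38 in Btg4wt over MII and -0.63 in Btg4tm over GV, and of all calls 7 were then higher and 11756 lower in MII over GV (1752 and 3351 before), and 6106 higher and 68 lower in Btg4tm over Btg4wt (2534 and 1109 before). Relative to those medians Cdk1 stood at -4.29 and 3.86, Ccnb1 at 0.57 and -0.17, Ccnb3 at 0.54 and -1.26, Wee1 at -1.48 and 0.49, and Cdc25c at -1.18 and 0.93. Log2 fold changes that turned sign under it were, in MII over GV, Ccnb1 -1.12, Ccnb2 -1.61, Ccnb3 -1.15, Cdc25a -1.37 and Wee2 -1.79. In Btg4tm over Btg4wt they were Ccnb1 0.68, Ccnb2 1.04, Cdc25a 0.56 and Wee2 1.02. In Btg4wt over MII they were Ccnb1 0.22, Ccnb2 0.48, Cdk1 0.15, Cdc25a 0.34, Cdc25b 0.24, Wee1 0.19 and Wee2 0.29. In Btg4tm over GV they were Ccnb1 -0.23, Ccnb2 -0.0935, Cdc25a -0.47, Cdc25b -0.40, Wee2 -0.48 and Pkmyt1 -0.41. Which scaling is nearer to RNA per oocyte was not tested.

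Quantile normalization gave 1 gene lower in MII over GV and 0 lower in Btg4tm over GV, and the calls of all genes in MII over GV became 3154 higher and 2662 lower. It turned small values, Ccnb2 in Btg4wt over MII (0.0218), Cdc25b (0.25) and Pkmyt1 (0.14) in MII over GV, Pkmyt1 in Btg4tm over Btg4wt (-0.12) and Cdc25c in Btg4tm over GV (0.0843). With TPM as deposited 0 were higher in MII over GV, and Cdc25a (-0.0083) and Wee2 (-0.0089) turned in Btg4tm over GV. A pseudocount of 0.1 called 2 higher in Btg4tm over Btg4wt. With no minimum fold the counts were 5 higher in MII over GV, 2 higher and 3 lower in Btg4tm over Btg4wt, and 1 higher in Btg4tm over GV. An adjusted p under 0.01, or only the 4 libraries compared, left 0 lower in Btg4tm over GV. Beyond the settings' own construction, the cause of these changes was not tested.

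Leaving out 1 library at a time, with the lone library assumed to vary like the other groups, gave 1 to 2 genes higher in MII over GV. Ccnb3 fell just short without the first GV, the first MII or either Btg4tm library (0.930 to 0.997). It gave 1 to 2 higher in Btg4tm over Btg4wt (2 without the first Btg4wt library) and 0 to 1 lower in Btg4tm over GV. Values that crossed 0 ranged, in MII over GV, from -0.15 to 0.0913 for Cdc25b and -0.24 to 0.00040 for Pkmyt1. In Btg4wt over MII the ranges were -0.0599 to 0.0213 for Ccnb2, -0.48 to 0.0675 for Cdk1, -0.49 to 0.0860 for Cdc25b and -0.17 to 0.71 for Cdc25c. In Btg4tm over GV they were -0.0085 to 0.27 for Cdc25a and -0.11 to 0.10 for Cdc25c, and in Btg4tm over Btg4wt -0.16 to 0.0356 for Wee2 and -0.0680 to 0.23 for Pkmyt1. Cdk1 stayed within -4.33 to -3.78 in MII over GV and 3.59 to 3.96 in Btg4tm over Btg4wt.

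Libraries of equal replicate number showed no common deviation: the correlations of their deviations ran from -0.05 to 0.06. With 2 libraries a group this cannot tell whether they were collected or processed together. With the replicate block, 2 genes were higher and 3 lower in MII over GV, 1 and 1 in Btg4tm over Btg4wt, and no call of the set changed. No filter, a filter at 5 TPM, no trend, and array weights also changed no call of the set, nor did all genes of the tables compared in MII over GV and Btg4tm over Btg4wt, where that setting was run. The rarest gene, Cdc25c, had the largest standard error of the set (0.29, against 0.10 for Ccnb2), and without read counts its counting error is unknown.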

Other observations

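The 14-3-3 proteins bind phosphorylated CDC25 and keep it inactive. Of 7 genes, 1 was called higher and 3 lower in MII over GV (median log2 fold change 0.16, and 0.0019 for all genes), and 2 were called higher in Btg4tm over Btg4wt. Of all genes 12.6% were called higher and 24% lower in the first comparison, and 18.2% higher in the second. Ywhaq averaged 237 scaled TPM in GV, 28.2 in MII, 32.4 in Btg4wt and 205 in Btg4tm (limma log2 fold changes -3.03 and 2.65 in the 2 comparisons). Ywhah averaged 58.5, 16.7, 25.9 and 53.2 (-1.75 and 1.02). Ywhab went the other way in maturation, at 99.0 in GV, 235 in MII, 213 in Btg4wt and 219 in Btg4tm (1.24 and 0.04), and it was the 1 gene of the list called higher in Btg4tm over GV (1.14, adjusted p = 0.0041). Under the mitochondrial scaling Ywhab was lower in MII, while Ywhaq and Ywhah kept their directions. The Ywhah call in Btg4tm over Btg4wt was lost after quantile normalization (0.78) and with TPM as deposited (0.9995).

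Among 9 tested genes of other cyclins and cyclin-dependent kinases, 1 was called higher and 3 lower in MII over GV, and 1 higher in Btg4tm over Btg4wt, near the shares of all genes (12.6%, 24% and 18.2%). Ccna2, cyclin A2, averaged 89.3 scaled TPM in GV, 194 in MII, 158 in Btg4wt and 149 in Btg4tm (1.11 and -0.09, both with the opposite sign under the mitochondrial scaling, and the first 0.96 and not called with TPM as deposited). Cdk4, a G1 kinase, averaged 12.4, 0.705, 0.894 and 7.39 (-2.98 and 2.15). Ccnf averaged 11.8, 5.16, 5.84 and 6.68 (-1.06 and 0.15), and quantile normalization ended its call (-0.71) and turned the second value to -0.0759. Of 5 tested inhibitors of cyclin-dependent kinases, 1 was called lower in MII, where 24% of all genes were, and none in Btg4tm over Btg4wt. It was Cdkn2d, at 6.62, 2.54, 3.95 and 7.55 scaled TPM (-1.11 and 0.75), and after quantile normalization the first value was -0.76 and not called.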
